A study of Mus musculus with 16 samples.

Results

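The immediate early genes described here were Fos, Fosb, Fosl1, Fosl2, Jun, Junb, Jund, Atf3, Egr1 and Ier2, chosen by symbol, 10 of the 46078 genes in the count table. They were measured in 16 RNA-seq libraries labelled as engineered mouse juxtaglomerular (JG) cells, cultured cells that carry YFP under the renin promoter. Cells were transfected with a control, non-mammalian miRNA precursor or with miR-106b, and were collected 48 h later. Each transfection has 4 libraries of polyA RNA, from cells taken straight into Trizol, and 4 of RNA bound to Ago2 (Ago2-IP), the protein of the RNA-induced silencing complex that carries miRNAs. The Ago2-IP libraries came from other cultures, whose cells were trypsinized before lysis, so RNA kind and harvest cannot be told apart where the 2 kinds are compared. The 4 libraries of a group came from replicate cultures of 1 engineered cell line.

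Immediate early genes are transcribed within minutes of a stimulus such as serum, stress or the handling of cells, without new protein synthesis, and most of their mRNAs are short-lived. Fos, Fosb, Fosl1 and Fosl2 pair with Jun, Junb or Jund to form the transcription factor AP-1, Atf3 is a stress-induced bZIP factor that also pairs with Jun proteins, Egr1 is a zinc-finger factor downstream of ERK and SRF, and Ier2 is a nuclear protein induced by growth factors. In JG cells, cyclic AMP and bZIP factors of the CREB family act on the renin gene.

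The transfected miRNA pairs with target mRNAs mainly through its seed, bases 2 to 8. The mature sequence is shown with the seed in capitals, since it defines the sites searched in the members (RefSeq, GRCm38.p6, chr5:138165787-138165807, minus strand).
mmu-miR-106b-5p: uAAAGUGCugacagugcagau

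A match to the seed, GCACTTT, or to its first bases followed by A, CACTTTA, was looked for on the sense strand of the longest 3′UTR of each gene in the mouse GENCODE M21 annotation (GRCm38). The first was present in 2 of the 10 members, against 15.3% of the 13221 tested genes with a 3′UTR, and no member held the second. Both members are shown with the match in capitals.
Fosl2, chr5:32156193-32156221, plus strand: ggcactatgagGCACTTTtctatttatcc
Atf3, chr1:191170513-191170541, minus strand: ggatgttaatgGCACTTTtgtcttgtagc

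The 3′UTRs of immediate early genes are known for AU-rich elements, which speed mRNA decay. The 7-base core TATTTAT was present in 7 of the 10 members and in 30.6% of the tested genes, although the members' 3′UTRs were shorter, with a median of 1000.5 bases against 1399. Fos held it 2 times, here with the first copy in capitals, and Fosl1 held it 1 time.
Fos, chr12:85477103-85477131, plus strand: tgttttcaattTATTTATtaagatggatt
Fosl1, chr19:5455867-5455895, plus strand: agggcagctgcTATTTATtttcctaaaga

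Junb, Egr1 and Ier2 held no TATTTAT. Of the members, 4 (Jun, Junb, Jund and Ier2) had a single exon in that transcript, against 2.34% of the tested genes. Matches of letters are descriptions and not evidence of binding or decay.

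All 10 members passed the filter on low counts that left 14897 genes. Totals per library were between 2579086 and 9459585 counts, and the polyA control libraries were the deepest. Ren1, the renin gene, had 0 counts in all 16 libraries, which allows up to 3 counts in each, and Akr1b7, another gene of renin cells, had 6 counts in all. The other 4 juxtaglomerular markers of the list, Gja4, Gja5, Rgs5 and Pdgfrb, which vascular mural or endothelial cells also express, were at 0 in no library and had 335 to 12627 counts in all. The list summed to 152 to 204 CPM in polyA control and 266 to 352 CPM in polyA miR-106b libraries. A list of 15 cardiac muscle genes reached summed levels of 19547 to 27793 CPM (counts scaled to the library's total) in polyA control, 38154 to 65981 in polyA miR-106b, 88392 to 94240 in Ago2-IP control and 85926 to 94446 in Ago2-IP miR-106b libraries. Of these only Myl7 was at 0 in any library, and Myh6, the myosin heavy chain of heart muscle, had 1695550 counts in all. With Ren1 at 0 and leukocyte and red cell markers also present, the values go against a label of JG cells alone, so each value below describes the libraries as labelled and not a checked cell type. The part of these transcripts in the results below was not tested. In bulk RNA, fewer cells of a type and less RNA per cell cannot be told apart.

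Levels between genes are compared as CPM per kilobase of exon, scaled within RNA kind, as a mean ± SD over 4 libraries. In polyA control libraries the values were 216 ± 8.99 for Jund, 102 ± 3.51 for Junb and 72.7 ± 6.42 for Fosl1. None of these 3 overlapped its neighbours in the order on these lengths. The lengths are of GENCODE M21, whose genes differ in extent from those counted. Jund begins at 70697739 in the authors' table and at 70698949 in M21, and Junb at 84976909 and 84974484. The order of Jund and Junb is therefore not settled by these values. Egr1 (48.1 ± 1.97), Jun (46.6 ± 1.62) and Ier2 (43.1 ± 3.85) had overlapping ranges, and Ier2 also overlapped Fosl2 (35.4 ± 3.80). Fos (3.97 ± 1.10), Atf3 (2.99 ± 0.768) and Fosb (1.53 ± 0.285) were far below, with overlap between Fos and Atf3 and none with Fosb. Fos, the best known member, was thus among the 3 lowest at this time point. In Ago2-IP control libraries Jund was at 141 ± 6.11 on its M21 length, and Fosl1, at 2.52 ± 0.527, overlapped Atf3, at 3.05 ± 1.03, near the low end.

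**Figure D1:**
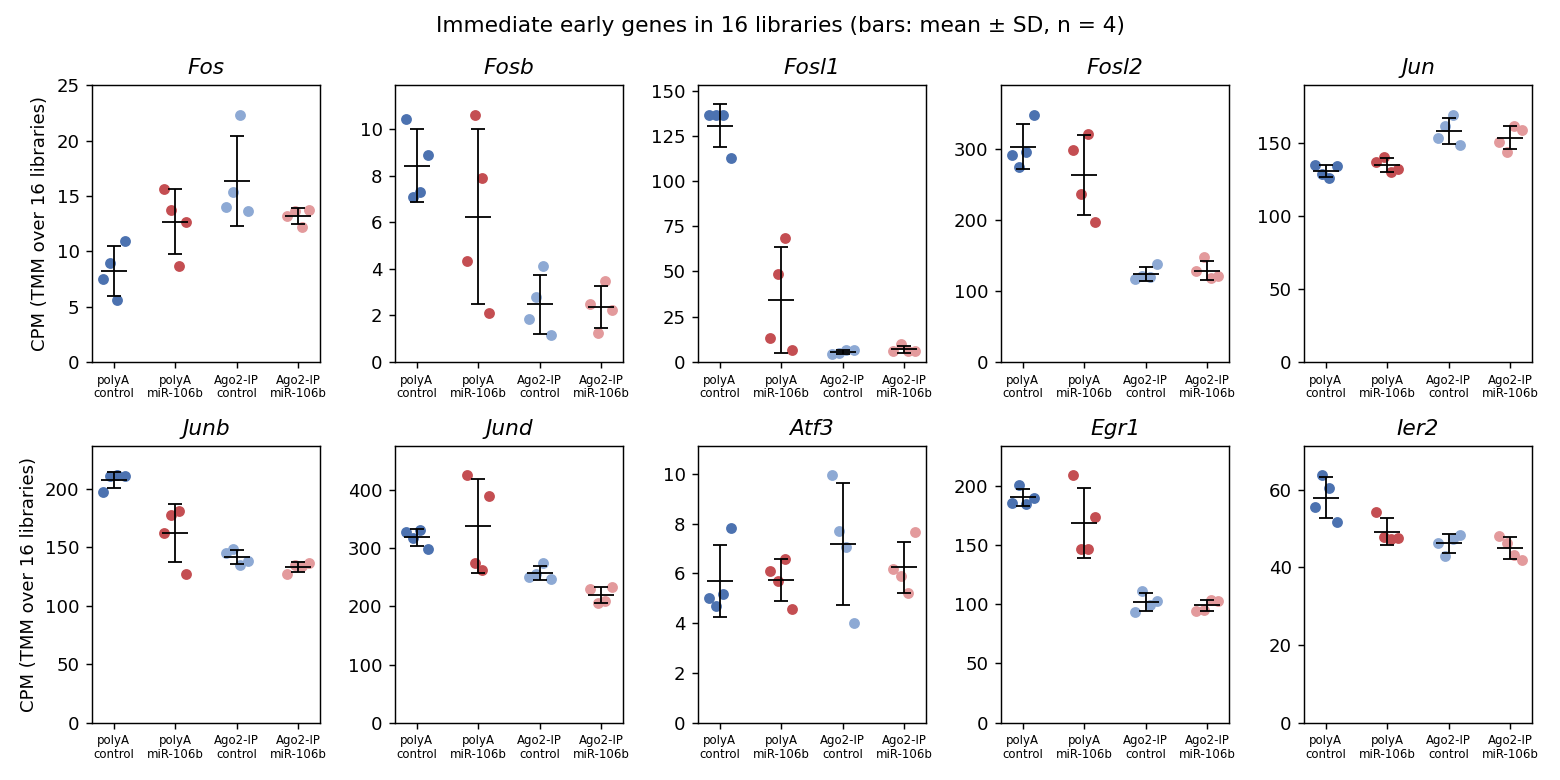
CPM of the 10 members in each library, scaled by TMM over all 16 libraries, for the 4 groups (points: libraries, horizontal bar and whiskers: mean ± SD, n = 4; y axes start at 0 and differ between genes). Fosl1 is high in the 4 polyA control libraries and spread widely in the polyA miR-106b libraries, while Jun lies in a narrow band throughout.

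The first comparison asked which members changed in polyA RNA of cells given miR-106b. Fosl1, Junb and Ier2 fell, and no member rose, with a threshold of 0.05 on the adjusted p (quasi-likelihood F test of edgeR). This is 3 of 10 lower and 0 higher, against 21.5% of all tested genes lower, 19% higher and 40.5% called in either direction, so the share is near the background. The members' fold changes were negative in 9 of 10, with a median of -0.31 on the log2 scale against -0.05 over all genes. With all 16 libraries in 1 fit, which moved the median of all genes to 0.07, 6 of 10 were negative, and Jun (0.04), Jund (0.09) and Atf3 (0.04) were positive as Fos was. The sign of Jund changed in 8 of 16 alternatives.

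Fosl1, chr19:5447703-5455945 in the authors' table, encodes Fra-1, an AP-1 subunit of proliferating and migrating cells. Its levels were 154, 155, 154 and 128 CPM in the control libraries and 13.6, 49.9, 71.9 and 7.03 CPM in the miR-106b libraries. Every miR-106b library was below every control library, but the miR-106b libraries differed from each other by far more than the controls did. The fold change was -2.04 ± 0.57 (log2, SE, n = 4 per group; 4.11-fold lower), with an adjusted p of 0.0215 (edgeR), and only 0.376% of all genes had a lower value. The exact permutation test over 70 relabellings gave p = 0.0286, the smallest that 4 against 4 libraries can give. In the same 4 miR-106b libraries, summed cardiac markers were 38154, 65981, 47757 and 63934 CPM, and 6 fibroblast markers summed to 27063, 16860, 14679 and 19997 CPM. The fibroblast sum was highest in replicates 1 and 4, where Fosl1 was lowest, and consisted mostly of the collagen genes Col1a1 (15096, 8769, 8303 and 11105 CPM) and Col3a1 (10606, 5734, 4682 and 6615 CPM). Other genes of the list had another order, with Col1a2 (1246, 2191, 1568 and 2116 CPM) and Dcn (70.04, 121, 85.9 and 109 CPM) lowest in replicate 1 and highest in replicate 2, as the cardiac sum was, and Lum was also highest in replicate 2. Pdgfra, the other gene of the list, was highest in replicates 4 and 1, at 40.8, 37.5, 37.0 and 46.9 CPM. The part of these cell types in the change of Fosl1 was not tested. Fosl1 exons overlap those of Ccdc85b on the other strand in GENCODE M21, and the libraries do not record strand.

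Junb, chr8:84976909-84978748, encodes a Jun protein that often restrains Jun activity. It measured 223, 239, 238 and 240 CPM in control and 167, 183, 189 and 133 CPM in miR-106b libraries. The groups did not overlap, as for 38.3% of all tested genes. The fold change was -0.48 ± 0.12 with an adjusted p of 0.00657 (edgeR). Junb exons overlap those of Prdx2 on the other strand in M21, where Junb begins at 84974484, so the overlap may lie outside the gene counted. Jun (with Junos) and Jund (with Gm11175) also have overlaps on the other strand there.

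Ier2, chr8:84661331-84662852, measured 63.0, 72.2, 68.1 and 58.8 CPM in control and 55.9, 49.1, 49.3 and 49.98 CPM in miR-106b libraries. The groups were separate, with a gap of less than 3 CPM at the nearest libraries. Its fold change was -0.36 ± 0.11 with an adjusted p of 0.0197 (edgeR). None of the 3 genes that fell held a seed match in its 3′UTR.

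The count of 3 called members depended on single libraries. It was 0 without control replicate 2 or control replicate 3, 1 without control replicate 1, 1 with no filter on low counts, and 5 without miR-106b replicate 3. For Fosl1 the adjusted p ranged up to 0.0764 without control replicate 2 and was 0.105 with no filter (edgeR), while the fold change stayed between -2.62 and -1.65 over the alternatives.

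The other Fos family members were not called. Fos measured 8.52, 10.2, 6.28 and 12.4 CPM in control and 16.1, 14.2, 9.09 and 13.3 CPM in miR-106b libraries. The groups overlapped, and the value was 0.50 ± 0.24 with an adjusted p of 0.107 (edgeR). Fosl2, which encodes Fra-2, had -0.33 ± 0.15 with an adjusted p of 0.102, and Fosb, at 6 to 77 counts per polyA library, had -0.53 ± 0.34 with an adjusted p of 0.234. Both had overlapping groups.

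Among the others, Egr1 had -0.30 ± 0.12 with an adjusted p of 0.0728 (edgeR). Its levels were 211, 228, 208 and 216 CPM in control and 215, 151, 153 and 182 CPM in miR-106b libraries, so replicate 1 of the miR-106b group lay among the controls. Jun, the founding AP-1 subunit, had -0.08 ± 0.09, Jund -0.04 ± 0.15 and Atf3 -0.09 ± 0.24, with adjusted p-values of 0.509, 0.865 and 0.801 (edgeR). Jun lay at 142 to 153 CPM in control and 136 to 145 CPM in miR-106b libraries.

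**Figure D2:**
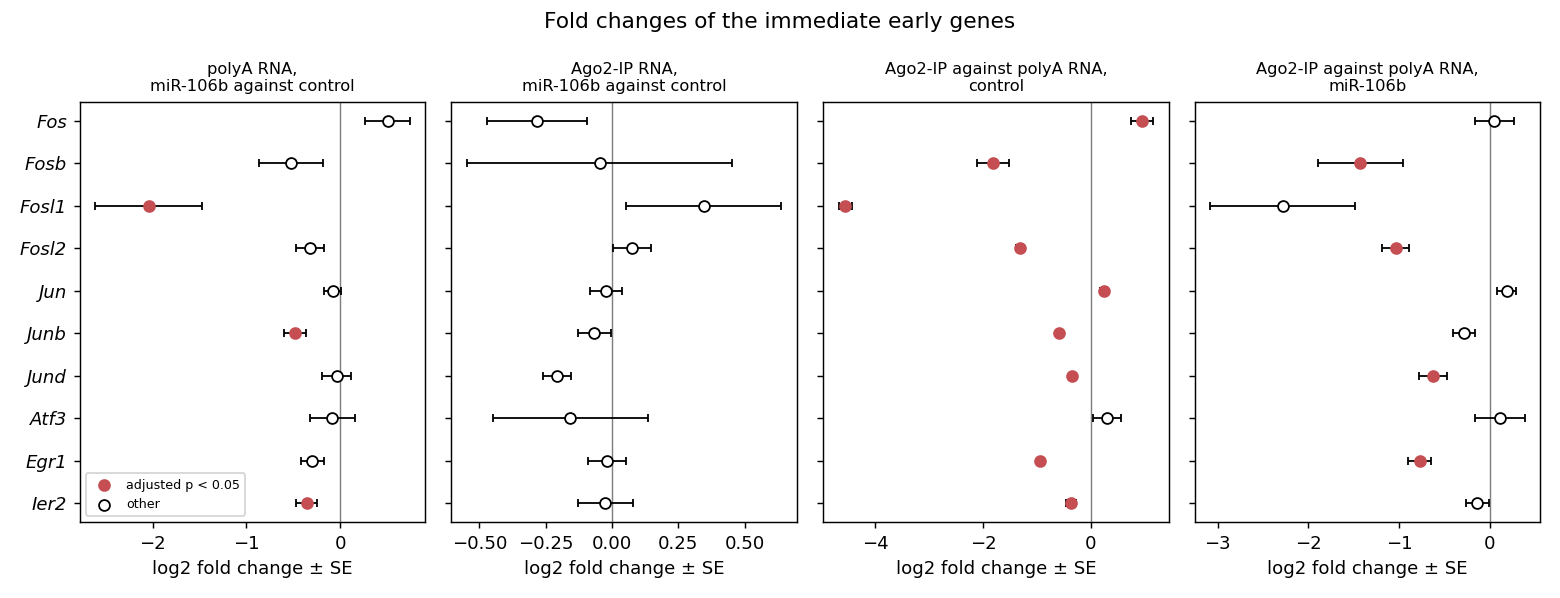
Log2 fold changes of the 10 members ± SE in 4 comparisons (filled: edgeR adjusted p under 0.05; x axes differ). Filled points number 3 for polyA RNA, 0 for Ago2-IP RNA, 9 for Ago2-IP against polyA RNA in control cells and 4 in miR-106b cells.

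Jund, a subunit that most cells express without stimulation, showed a split within the polyA miR-106b group. It measured 371, 360, 372 and 340 CPM in control libraries and 438, 284, 275 and 409 CPM in miR-106b libraries. Replicates 1 and 4 lay above all controls and replicates 2 and 3 below all controls. Col1a1 and Col3a1 had the same order in these 4 libraries as Jund, replicate 1 highest, then 4, 2 and 3, while Col1a2 and Dcn of the fibroblast list were lowest in replicate 1, and the part of these genes in the split was not tested. The same replicates 1 and 4 were the lowest for Fosl1 and Junb.

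The members did not vary as a block. Over the 16 libraries with group means removed, the 36 pairs of the 9 members with at least 10 counts in every library had Pearson correlations from -0.845 (Fosl1 and Jund) to 0.816 (Fosl1 and Junb), with a median of -0.00919. Jund and Egr1 had 0.757, and Fosl1 and Egr1 had -0.661. The points share libraries and depth, and the polyA miR-106b group has the widest spread. The genes most like the mean of these 9 members, among 10945 genes, were Pcnxl3 (0.902), Sema4b (0.874), Tbc1d1 (0.866), Rbbp8 (0.853) and Pisd (0.840). Members were not scaled to equal spread in that mean. Fosl1, at 7.03 to 71.9 CPM in the polyA miR-106b libraries, weighs most in it, so these values do not show likeness to each member.

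**Figure D3:**
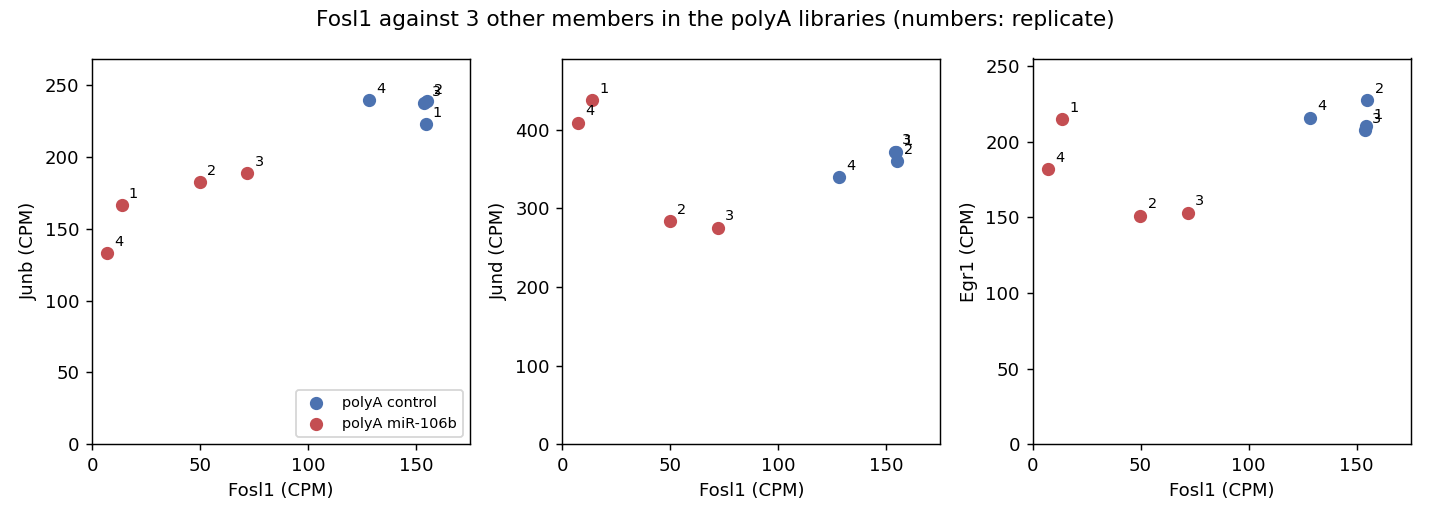
Fosl1 (x axis, CPM scaled within polyA RNA) against Junb, Jund and Egr1 (y axes, CPM) in the 8 polyA libraries, with replicate numbers beside the points. In the miR-106b libraries Junb is higher where Fosl1 is higher, and replicates 1 and 4 have the highest Jund and Egr1 and the lowest Fosl1.

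Genes that act with these members were taken from lists of the same pathway. Other early response genes had 3 higher and 18 lower of 44 tested, with a median log2 fold change of -0.40. Over all tested genes 19% were higher and 21.5% lower, with a median of -0.05. Myc, the growth regulator, fell from 117 ± 12.5 to 41.0 ± 19.0 CPM (-1.50 ± 0.26), Hbegf, a ligand of the EGF receptor, by 1.40 on the log2 scale and Ptgs2, the inducible cyclooxygenase, by 1.90. Zfp36, which binds AU-rich elements, rose by 0.72, the kinase Sik1 by 0.78 and Btg2, an antiproliferative gene, by 0.47. Their adjusted p-values (edgeR) were 0.00131, 0.00140, 0.0119, 0.00107, 0.00220 and 0.0207, in the order named.

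Upstream kinases and factors had 4 higher and 11 lower of 33 tested, and partner bZIP factors 5 higher and 7 lower of 23. Over all tested genes 19% were higher and 21.5% lower, 40.5% in either direction. Nras (-1.10), the p38 kinase gene Mapk11 (-0.91) and Rps6ka4 (-0.82), which encodes MSK2, fell, and Mapk10 (0.87), Mapkapk2 (0.52) and Rps6ka1 (0.43) rose. Among the partners, Maf (1.06) and Nfe2l1 (0.38) rose, and Creb5 (-0.82), Creb1 (-0.65) and Atf4 (-0.55) fell. All values are log2 fold changes with adjusted p-values under 0.05.

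Feedback inhibitors had 3 higher and 8 lower of 15 tested, with a median of -0.53, where all tested genes had 19% higher and 21.5% lower. The MAP kinase phosphatases Dusp4 (-1.34), Dusp2 (-1.22) and Dusp5 (-1.21) fell, while Spry4 (0.80), Dusp8 (0.67) and Dusp7 (0.33) rose. Genes known as AP-1 targets had 7 higher and 11 lower of 28, against the same shares. Fgf7 (-1.85), a fibroblast growth factor, and Cd44 (-1.50), a cell surface receptor, fell. Dcn (1.24), Nppb (1.23) and Nppa (1.22) rose, and the last 2 encode natriuretic peptides of heart muscle (Nppa is also among the cardiac markers). All 14 tested cardiac muscle markers rose in the same comparison, by a median of 1.24. So did 8 of 8 leukocyte, 7 of 8 endothelium, 6 of 6 fibroblast and 4 of 5 red cell markers, while smooth muscle markers had 2 higher and 1 lower of 6, juxtaglomerular markers 3 higher of 4 and kidney tubule markers 1 lower of 3. The part of these cell types in the values above was not tested.

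**Figure D4:**
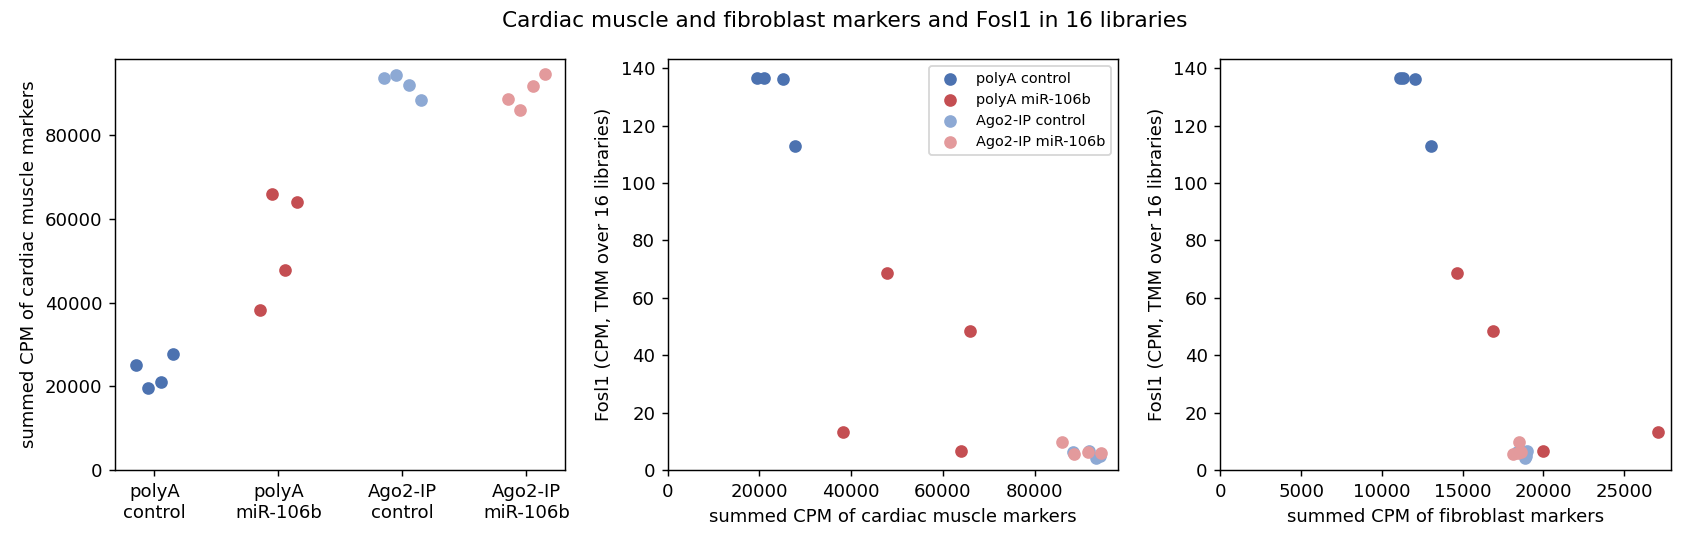
Summed CPM of 15 cardiac muscle markers in each library by group (left), and Fosl1 in CPM, scaled by TMM over 16 libraries, against that sum (middle) and against the sum of 6 fibroblast markers (right). The polyA miR-106b libraries lie at 38154 to 65981 for the cardiac sum, between the polyA control and the Ago2-IP libraries, and at 14679 to 27063 for the fibroblast sum. That sum is mostly Col1a1 and Col3a1 and is highest in the 2 of these libraries with the least Fosl1, while Col1a2, Dcn and Lum peak in another library.

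The second comparison was the same contrast in Ago2-IP RNA. No member was called, and neither was any gene (0% of 14897; 827 genes, 5.55%, had an unadjusted p under 0.05, while DESeq2's Wald test called 2 genes and edgeR's likelihood ratio test 18). The members' fold changes lay between -0.28 (Fos) and 0.35 (Fosl1). Only Jund had an unadjusted p under 0.05, with a fold change of -0.21 ± 0.05 and an adjusted p of 0.314 (edgeR). It measured 230, 232, 250 and 229 CPM in control and 216, 194, 193 and 212 CPM in miR-106b libraries. Its groups did not overlap, as for 3.26% of tested genes, and the exact permutation p was 0.0286.

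Fosl1 was near its lowest levels in Ago2-IP RNA, at 3.98, 4.47, 6.18 and 5.90 CPM in control and 5.42, 9.34, 5.80 and 5.53 CPM in miR-106b libraries. These are 14 to 32 counts per library, which limits the precision of the fold change, 0.35 ± 0.29. Fosl2 and Atf3, the members with a seed match, had 0.08 ± 0.07 and -0.16 ± 0.29 with adjusted p-values of 0.937 and 0.970 (edgeR).

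The ratio of Ago2-IP to polyA RNA compares separate cultures, and it also changes where only polyA RNA changes. With miR-106b 0 of 14897 genes were called in Ago2-IP RNA, against 40.5% in polyA RNA. A changed ratio is therefore not shown to be movement into or out of the Ago2-bound pool. The change of the ratio with miR-106b, tested as an interaction over all 16 libraries, was called for 1 member, Fos. The share over all tested genes was 27.3% in either direction (7.62% higher, 19.7% lower). The ratio of Fos was lower with miR-106b by 0.93 ± 0.31 (log2, adjusted p = 0.0257, edgeR). The exact permutation test over 4900 relabellings gave an unadjusted p of 0.0135. Its relabellings shuffle transfection within each RNA kind, so it tests for no effect in either kind and not for the ratio alone. In Ago2-IP RNA Fos measured 12.8, 13.96, 20.4 and 12.7 CPM in control and 12.4, 12.8, 11.3 and 12.5 CPM in miR-106b libraries. Control replicate 3 stood apart from the rest, and the adjusted p was 0.0770 without it (edgeR). It was also over 0.05 without polyA control replicate 3 (0.0604) and without polyA miR-106b replicate 2 (0.0703). With all libraries it was 0.0618 with library size only, 0.0619 with no filter on low counts and 0.0575 with TMM within each RNA kind, so the call was lost in 6 of 24 alternatives. Marker lists fell in the same contrast by more than Fos did, with 14 of 14 cardiac (median -1.40), 7 of 8 endothelium (-1.41), 7 of 8 leukocyte (-1.36), 6 of 6 fibroblast (-1.29), 4 of 5 red cell (-1.44) and 3 of 4 juxtaglomerular markers (-1.10) lower. Smooth muscle markers had 3 of 6 lower (-0.76) and kidney tubule markers 0 of 3 called (0.90), and the part of these lists in the ratio of Fos and of the pathway genes was not tested.

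The ratio of Fosl1 was higher by 2.24 ± 0.90, with an adjusted p of 0.0864 (edgeR), so it was not called. DESeq2's Wald test gave an adjusted p of 0.0152. The unadjusted p was 0.028 with edgeR and 0.00408 with the exact permutation test. The other 8 members had values from -0.31 (Jund) to 0.34 (Fosb). Seed-matched Fosl2 (0.25 ± 0.17) and Atf3 (-0.22 ± 0.38) had adjusted p-values of 0.299 and 0.716 (edgeR).

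In the pathway lists, the ratio rose for 10 and fell for 6 of 44 other early response genes (all tested genes: 7.62% higher, 19.7% lower), and rose for 7 and fell for 7 of 28 AP-1 targets. Counts were 1 higher and 4 lower of 23 partners, 4 higher and 3 lower of 33 upstream genes and 2 higher and 3 lower of 15 feedback inhibitors. Myc (1.66 ± 0.35), Nr4a2 (1.64 ± 0.36), an early nuclear receptor, and Dusp4 (1.61 ± 0.38) rose, and Sik1 (-0.88 ± 0.17) and Zfp36 (-0.87 ± 0.16) fell. In Ago2-IP RNA alone no gene of the 5 lists was called.

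Between the RNA kinds, in control cells, 9 of 10 members were called, against 73.3% of all tested genes (35.4% higher, 37.9% lower). In Ago2-IP RNA 7 were lower, Fosl1 (-4.55 ± 0.12), Fosb (-1.81 ± 0.29), Fosl2 (-1.32 ± 0.08), Egr1 (-0.93 ± 0.07), Junb (-0.58 ± 0.06), Ier2 (-0.36 ± 0.09) and Jund (-0.34 ± 0.06), and their groups did not overlap, as for 66.8% of tested genes. Fosl1 was at 113 to 137 CPM in polyA and 4.35 to 6.77 CPM in Ago2-IP libraries (scaled over all 16 libraries), 23.5-fold lower, and 0.678% of genes had a lower value. Its adjusted p was 1.05e-18 (edgeR).

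Fos was 1.94-fold higher in Ago2-IP RNA, at 13.99, 15.4, 22.4 and 13.7 CPM against 7.53, 8.95, 5.59 and 10.9 CPM in polyA RNA (adjusted p = 0.000212, edgeR). Every Ago2-IP library was above every polyA library. Jun was higher by 0.24 ± 0.06 with an adjusted p of 0.00176 (edgeR), but was -0.05 when libraries were scaled by size only, a scaling that moved the median of all genes from -0.06 to -0.35. Atf3 was not called, at 0.30 ± 0.26 with an adjusted p of 0.301 (edgeR), and its highest and lowest Ago2-IP control libraries were 9.95 and 4.00 CPM. Thus Fos and Fosl1, subunits of the same factor, lay on opposite sides, and Fos was higher under every alternative.

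In miR-106b cells 4 of 10 members were called lower in Ago2-IP RNA, against 19.8% of all genes lower, 18.6% higher and 38.5% in either direction. They were Fosb (-1.43 ± 0.47), Fosl2 (-1.03 ± 0.15), Egr1 (-0.77 ± 0.13) and Jund (-0.63 ± 0.15), all lower in control cells too, and both comparisons use polyA and Ago2-IP libraries of their own. The groups of Fosl2, Egr1 and Jund did not overlap, as for 37.2% of tested genes, and these genes kept the call under the alternatives run. The groups of Fosb overlapped, with an exact permutation p of 0.114, and its call was lost in 5 of 15 alternatives, each with 1 library left out (polyA miR-106b replicate 2 or 3, or Ago2-IP miR-106b replicate 1, 2 or 4), with an adjusted p of up to 0.105 (edgeR). Fosl1 was -2.28 ± 0.80 with an adjusted p of 0.0639 (edgeR), and its polyA values of 13.2, 48.5, 68.8 and 6.69 CPM reached down to the Ago2-IP range of 5.76 to 9.92 CPM. It gained the call in 6 of 16 alternatives. Fos was 0.05 ± 0.22 with an adjusted p of 0.869 (edgeR), at 12.2 to 13.7 CPM in Ago2-IP and 8.70 to 15.6 CPM in polyA libraries.

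The pathway lists moved both ways between the RNA kinds in control cells, as all tested genes did (35.4% higher, 37.9% lower). Other early response genes had 13 higher and 26 lower of 44, AP-1 targets 8 higher and 17 lower of 28, partners 11 higher and 9 lower of 23, upstream genes 13 higher and 13 lower of 33, and feedback inhibitors 5 higher and 7 lower of 15. Ptgs2 (-4.43 ± 0.20), Fgf7 (-4.89 ± 0.31) and Dusp14 (-4.12 ± 0.24) were lower in Ago2-IP RNA by amounts like that of Fosl1, and Sik1 (1.60 ± 0.08) and Zfp36 (1.21 ± 0.10) were higher, like Fos. In miR-106b cells the counts were 7 higher and 14 lower for other early response genes, 5 and 12 for AP-1 targets, 2 and 4 for partners, 5 and 9 for upstream genes and 3 and 5 for feedback inhibitors. Shares over all tested genes in these cells were 18.6% higher and 19.8% lower. All 14 tested cardiac markers were higher in Ago2-IP RNA in both comparisons, by medians of 2.27 and 0.89. In control cells 8 of 8 leukocyte (median 2.21), 8 of 8 endothelium (2.21), 6 of 6 fibroblast (1.87) and 5 of 5 red cell markers (2.15) were also higher, as were 4 of 4 juxtaglomerular (1.80) and 4 of 6 smooth muscle markers, and 2 of 3 kidney tubule markers were lower (median -3.40, lowest -5.49). In miR-106b cells the medians were 0.95, 0.87, 0.71 and 0.79 for the first 4 lists and -1.72 for kidney tubule markers. The part of these lists in the members' differences was not tested.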

How the data were processed

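RNA was sequenced by the authors as single-end, non-strand-specific reads of 50 bases. Ribosomal reads were removed, the rest aligned to GRCm38 with Tophat2 (version 2.0.10 in the submitters' processing notes, another in the methods) and counted per gene with HTSeq. The deposited values are raw counts, with no normalization. Genes reaching 1 CPM in 3 or more of the 4 libraries of some group were tested (14897 of 46078). Counts were compared in R 4.3.3 with edgeR 4.0.16 (quasi-likelihood F test, robust, TMM, two-sided, Benjamini-Hochberg over all tested genes, threshold 0.05), the polyA, Ago2-IP, control and miR-106b comparisons in fits of their own and the ratio as an interaction over 16 libraries. Prior counts were 0.125 for fold changes and 2 for log2 CPM. Single genes were also compared by two-sided exact permutation tests, whose p-values are not adjusted. The fits were tested on simulated data. The ratio fit missed a first criterion on recovery, since it did not find many of the smaller changes put in, and the criterion was replaced by others on bias, false calls and larger changes, so a ratio that was not called may still have changed. Alternatives were DESeq2 1.42.0, edgeR's likelihood ratio test, other scalings and filters, a replicate block and leaving out each library. Intervals of 0 counts cover counting error only. Exon lengths, 3′UTRs and overlaps came from GENCODE M21.

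The members and lists were chosen with earlier results of these data known. Named genes are all members, per list the 3 largest changes in each direction past the threshold with at least 5 CPM on average, and the 5 genes most like the members' mean. Some genes that this rule names are not reported here.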

Additional observations from a re-analysis of the deposited data

Results flagged for a closer look

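In 7 of 40 combinations of member and group, 1 library lay apart from the other 3 by Dixon's criterion, where chance gives about 1 in 20. They were the highest Ago2-IP control library of Fos (20.4 CPM), the lowest polyA control library of Fosl1 (128 CPM), the highest Ago2-IP miR-106b library of Fosl1 (9.34 CPM), the lowest polyA control library of Junb (223 CPM), the highest Ago2-IP control library of Jund (250 CPM), the highest polyA miR-106b library of Ier2 (55.9 CPM) and the highest polyA control library of Atf3 (8.90 CPM). Fos was 20.4 CPM and Jund 250 CPM in the same library, Ago2-IP control replicate 3.

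The effect of miR-106b on Fos differed between Ago2-IP and polyA RNA by -0.93 (log2, interaction term, adjusted p = 0.0257, edgeR), on TMM scaling over all 16 libraries. With TMM within each RNA kind, the scaling of the single comparisons (0.50 in polyA and -0.28 in Ago2-IP RNA, neither called), it was -0.79 with an adjusted p of 0.0575 (edgeR).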

How the results depend on the processing

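The counts of members called for Ago2-IP RNA and for Ago2-IP against polyA RNA stayed within 1.5 times under the alternatives run. For polyA RNA the count of 3 was 1 with no filter on low counts and ranged from 0 to 5 with 1 library left out. For the ratio the count of 1 was 2 with DESeq2's Wald test and 2 with the likelihood ratio test, and ranged from 0 to 3 with 1 library left out. Of the members' values under alternatives, 796 kept their direction and call, 23 lost the call, 25 gained it and 31 changed sign, and the cause was not tested. Among those that changed sign, Jun between RNA kinds in control cells was called with TMM scaling. It was -0.046 with library size only. The others were not called. In polyA RNA, Jund was 0.024 with DESeq2 size factors and with DESeq2's Wald test, and 0.087 with all 16 libraries in 1 fit, where Jun was 0.043 and Atf3 0.039. For the ratio, Jun was 0.084 with library size only, 0.061 with no filter and 0.061 with TMM within each RNA kind. Between RNA kinds in miR-106b cells, Fos was -0.092 and Atf3 -0.040 with library size only. With 1 library left out, the ranges over left-out libraries that crossed 0 were, in polyA RNA, -0.098 to 0.015 for Jun, -0.118 to 0.063 for Jund and -0.155 to 0.099 for Atf3; in Ago2-IP RNA, -0.299 to 0.312 for Fosb, -0.003 to 0.137 for Fosl2, -0.047 to 0.012 for Jun, -0.057 to 0.022 for Egr1, -0.064 to 0.017 for Ier2 and -0.369 to 0.041 for Atf3; for the ratio, -0.115 to 0.028 for Jun; and between RNA kinds in miR-106b cells, -0.095 to 0.177 for Fos and -0.005 to 0.189 for Atf3. Over all genes, Ago2-IP RNA had 0 calls, and 20 with no filter on low counts, 2 with at least 10 counts in every library, 2 with DESeq2's Wald test, 18 with the likelihood ratio test, 1 with the replicate block and up to 40 with 1 library left out (Ago2-IP miR-106b replicate 4). In polyA RNA 47.0% of called genes were higher, and 61.4% with all 16 libraries in 1 fit. For the ratio this share was 27.9%, and 46.3% with library size only. Between RNA kinds it was 48.3% in control and 48.5% in miR-106b cells, and 37.6% and 34.0% with library size only. The replicate numbers did not pair libraries, with correlations of -0.519 to 0.383 and 3 of 24 over 0.1. With the replicate block the counts of members called were 3, 0, 1, 9 and 5 for polyA RNA, Ago2-IP RNA, the ratio, and the RNA kinds in control and in miR-106b cells, the last with Fosl1 at -1.99 and an adjusted p of 0.0461 (edgeR). Fosb and Atf3, at 4 to 77 and 13 to 51 counts per library, are limited by depth.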
